A study of Rattus norvegicus with 6 samples.

Results

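The Wnt pathway genes examined here are 44 genes, chosen by name among the 17337 gene names of the RNA-seq tables. They are 18 Wnt ligands, 9 Fzd receptors, the co-receptors *Lrp5* and *Lrp6*, the secretion genes *Porcn* and *Wls*, 8 secreted modulators of the Sfrp and Dkk families, *Ctnnb1*, *Axin2*, and the nuclear factors *Tcf7l1*, *Tcf7l2* and *Lef1*. The cells were cortical neural progenitors of Sprague Dawley rats, taken from cortices at embryonic day 14, untreated, grown with bFGF and EGF and collected after a second passage. PolyA RNA came from 2 biological replicates, A and B, each sequenced as 2 technical libraries, named A1, A2, B1 and B2. There was 1 condition, so the comparisons are between genes and between the replicate cultures, and with n = 2 biological replicates no test was made. Start-seq, the sequencing of short capped RNA from nuclei, was not analysed here.

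Wnt proteins are secreted lipid-modified ligands. They bind Fzd receptors together with *Lrp5* or *Lrp6*, which stops the Axin complex from marking beta-catenin for destruction, so that beta-catenin enters the nucleus and acts with Tcf and Lef factors. In the developing cortex the pathway is known for setting dorsal identity and for keeping progenitors dividing, and the cortical hem and the meninges are known sources of ligands.

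The mRNA level is given as FPKM, fragments scaled to transcript length and library depth, and levels of different genes are compared only on this per-length scale. Technical libraries were averaged within a replicate, and the mean ± SD is over A and B. A gene is called apart between the replicates when its mean was at least 1 FPKM, the replicate means differed by at least 1 on the log2(FPKM + 1) scale, and the libraries of A did not overlap those of B. This call describes how far the cultures lie from each other and carries no p-value. In depth, 1 FPKM corresponded to a mean coverage of 22.7 to 24.4 reads per base in A1, A2 and B1 and of 6.83 in B2. Every one of the 8 neural progenitor markers looked for, among them *Sox2* and *Pax6*, was found. *Fabp7* alone had 16800 and 18557 FPKM in A and 6520 and 5485 FPKM in B, and *Vim*, which mesenchyme also expresses, 2882 and 3171 FPKM in A and 2652 and 4458 FPKM in B. The other 6 summed to 1306 and 1336 FPKM in A and to 886 and 883 FPKM in B, lower in B without overlap. This depended on leaving out *Vim*. With *Vim* included, the sums were 4188 and 4506 FPKM in A and 3538 and 5341 FPKM in B, and the replicates overlapped. The 5 endothelial markers summed to at most 2.37 FPKM and the 4 microglial markers to at most 1.34 FPKM in any library. Of 15 mesenchymal and meningeal markers, 14 were apart with the higher level in B, against 4.78% of all gene names, and 11 without B2 (*Tbx18*, *Cyp1b1* and *Crabp2* were lost), against 3.67%. The sum of the 15 was 951 FPKM in both libraries of A, 3237 FPKM in B1 and 4154 FPKM in B2. In bulk RNA, fewer cells of a type and less RNA per cell cannot be told apart.

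Promoter sequences are shown for 3 of the members that were apart between the replicates (*Wnt2b*, *Wnt6* and *Sfrp2*), for the leading ligand *Wnt7a*, whose replicates overlapped, and for *Axin2*, a known feedback target of the pathway. They are RefSeq sequences, from 250 bases before to 50 after the annotated start. RefSeq promoters were matched by symbol for 31 of the 44 members (70.5%), too few to compare promoter properties over the whole set. Capitals mark matches, on either strand, to a TCF/LEF core, a TATA box, a CCAAT box or a GC box. Neighbouring GC box matches may overlap each other.
*Wnt2b* promoter (GRCr8 chr2:195156896-195157195, minus strand): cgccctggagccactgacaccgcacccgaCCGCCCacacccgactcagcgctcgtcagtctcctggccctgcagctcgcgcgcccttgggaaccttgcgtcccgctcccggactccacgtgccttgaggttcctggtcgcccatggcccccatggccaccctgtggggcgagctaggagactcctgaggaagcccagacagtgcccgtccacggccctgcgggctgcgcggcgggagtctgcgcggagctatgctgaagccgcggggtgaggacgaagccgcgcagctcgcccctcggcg
*Wnt6* promoter (GRCr8 chr9:83778302-83778601, plus strand): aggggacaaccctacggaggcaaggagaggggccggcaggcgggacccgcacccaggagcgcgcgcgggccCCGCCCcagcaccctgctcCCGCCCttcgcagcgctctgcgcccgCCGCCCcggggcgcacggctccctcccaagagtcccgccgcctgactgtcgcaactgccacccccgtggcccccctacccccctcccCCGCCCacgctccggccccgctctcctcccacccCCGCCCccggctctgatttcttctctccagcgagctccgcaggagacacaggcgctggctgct
*Sfrp2* promoter (GRCr8 chr2:171387286-171387585, plus strand): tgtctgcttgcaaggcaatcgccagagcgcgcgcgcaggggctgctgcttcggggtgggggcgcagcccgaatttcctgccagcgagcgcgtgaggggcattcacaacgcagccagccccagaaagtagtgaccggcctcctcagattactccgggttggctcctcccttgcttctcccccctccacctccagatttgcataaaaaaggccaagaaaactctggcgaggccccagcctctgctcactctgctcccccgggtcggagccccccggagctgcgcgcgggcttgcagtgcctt
*Wnt7a* promoter (GRCr8 chr4:125466100-125466399, minus strand): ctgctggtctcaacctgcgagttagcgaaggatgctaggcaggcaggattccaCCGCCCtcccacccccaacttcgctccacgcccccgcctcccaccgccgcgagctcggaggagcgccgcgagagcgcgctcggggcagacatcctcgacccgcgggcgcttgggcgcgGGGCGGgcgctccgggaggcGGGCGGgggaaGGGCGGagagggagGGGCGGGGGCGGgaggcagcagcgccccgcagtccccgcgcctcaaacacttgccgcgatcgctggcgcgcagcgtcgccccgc
*Axin2* promoter (GRCr8 chr10:94398535-94398834, plus strand): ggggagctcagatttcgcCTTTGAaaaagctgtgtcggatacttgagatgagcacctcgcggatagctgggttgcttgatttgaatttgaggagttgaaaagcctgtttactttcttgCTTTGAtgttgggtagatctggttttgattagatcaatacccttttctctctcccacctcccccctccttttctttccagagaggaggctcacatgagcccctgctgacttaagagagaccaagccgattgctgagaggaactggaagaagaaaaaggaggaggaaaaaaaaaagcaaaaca

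Of these 5 promoters, the TCF/LEF core, searched as CTTTGA, stood in that of *Axin2*, which held 2 matches, starting 232 and 132 bases before the annotated start. The same letters are present in 15.9% of the 27457 RefSeq promoters searched. Of the 31 member promoters, 3 (9.68%) held them, those of *Axin2*, *Dkk1* and *Wnt8a*, which is a description only. The GC box, searched as GGGCGG, was matched 1 time in *Wnt2b*, 5 times in *Wnt6* and 6 times in *Wnt7a*. At least 1 match stood in 18 of the 31 member promoters (58.1%) and in 34.9% of all promoters. The TATA box, searched as TATAAA and present in 14.3% of all promoters, was matched in none of the 5. Nor was the CCAAT box, whose name gives the letters searched and which 37.7% of all promoters hold. Bases G or C made up 76.3% of the *Wnt6* promoter and 45.7% of that of *Axin2*. These matches describe the sequence and do not show binding. The 3 members shown that were apart between the replicates had no searched motif in common, since *Sfrp2* matched none of them. *Dkk2*, which was also apart, had no matched RefSeq promoter.

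Most of the 44 genes were detected. A mean of at least 1 FPKM was reached by 33 of them (75.0%), against 60.5% of all gene names, and a mean of at least 10 FPKM by 15 (34.1%), against 38.3% of all gene names. All 44 were above 0 in A1 and in A2, 41 in B1 and 38 in B2, the library of lowest depth. Of the 11 members below 1 FPKM, 5 were below 0.1 FPKM: *Wnt1*, *Wnt3a*, *Wnt8a*, *Wnt9b* and *Wnt10b*. Their mean coverage was at most 1.07 reads per base in any library. *Wnt1*, a ligand of the midbrain and dorsal neural tube, and *Wnt3a*, the ligand that defines the cortical hem in the embryo, were thus at the limit of what this depth can show.

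**Figure D1:**
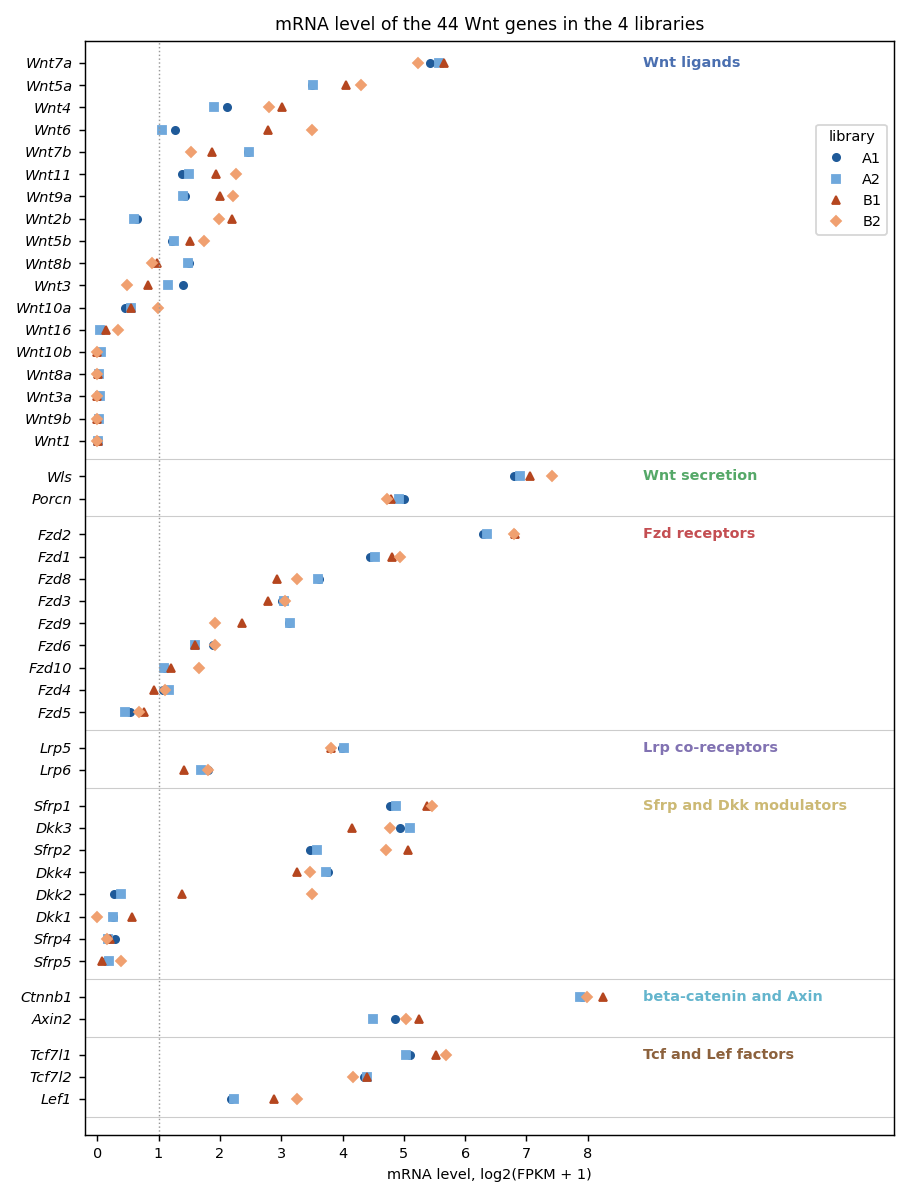
mRNA level of each of the 44 genes on the log2(FPKM + 1) axis, grouped by role, with 1 symbol for each library and a dotted line at 1 FPKM. *Ctnnb1*, *Wls* and *Fzd2* lie farthest to the right, and 5 Wnt ligands lie at or next to 0 in all 4 libraries.

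Among the ligands, 11 of 18 had a mean of at least 1 FPKM, and *Wnt7a*, a ligand of the embryonic forebrain, led them. *Wnt7a* had 41.8 and 46.7 FPKM in A1 and A2 and 49.2 and 36.5 FPKM in B1 and B2, a mean of 43.5 ± 0.998 FPKM (SD, n = 2). The replicates overlapped, and the libraries of B lay farther from each other than the replicate means did. *Wnt5a*, best known for signalling through Ror receptors without beta-catenin, was second with 10.4 and 10.5 FPKM in A and 15.6 and 18.7 FPKM in B, a mean of 13.8 ± 4.75 FPKM (SD, n = 2). Both libraries of B were above both of A. *Wnt7a* was 3.15 times as high as *Wnt5a*, and its lowest library was above the highest library of *Wnt5a*.

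Below these, the ranges of neighbouring ligands overlapped. *Wnt4* had 3.35 and 2.76 FPKM in A and 7.09 and 6.01 FPKM in B, a mean of 4.80 ± 2.47 FPKM (SD, n = 2), with no overlap. It was followed by *Wnt6* at 4.69 ± 4.87 FPKM and by *Wnt7b*, the close relative of *Wnt7a*, at 3.40 ± 1.59 FPKM (SD, n = 2). Of the 10 neighbouring pairs in the order of ligands from *Wnt7a* to *Wnt3*, 2 had ranges that did not overlap across the 4 libraries, and these were the pairs *Wnt7a* and *Wnt5a*, and *Wnt5a* and *Wnt4*. A further pair, *Wnt8b* and *Wnt3*, kept its order within each of the 4 libraries. The ligands after *Wnt7b* were *Wnt11*, *Wnt9a*, *Wnt2b*, *Wnt5b*, *Wnt8b* and *Wnt3*, with means from 2.51 down to 1.01 FPKM. *Wnt10a* and *Wnt16* had 0.572 and 0.112 FPKM.

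The summed level of the 18 ligands was 70.6 and 74.5 FPKM in A1 and A2 and 94.0 and 88.8 FPKM in B1 and B2, a mean of 82.0 ± 13.3 FPKM (SD, n = 2). *Wnt7a* made up 59.2% and 62.6% of this sum in the libraries of A and 52.3% and 41.1% in those of B. The level of *Wnt7a* itself differed little between the replicate means, and the sum of the other ligands was larger in B. The share of *Wnt6* was 2.01% and 1.45% in A and 6.29% and 11.7% in B, while that of *Wnt7b* was 6.39% and 6.09% in A and 2.81% and 2.14% in B.

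**Figure D2:**
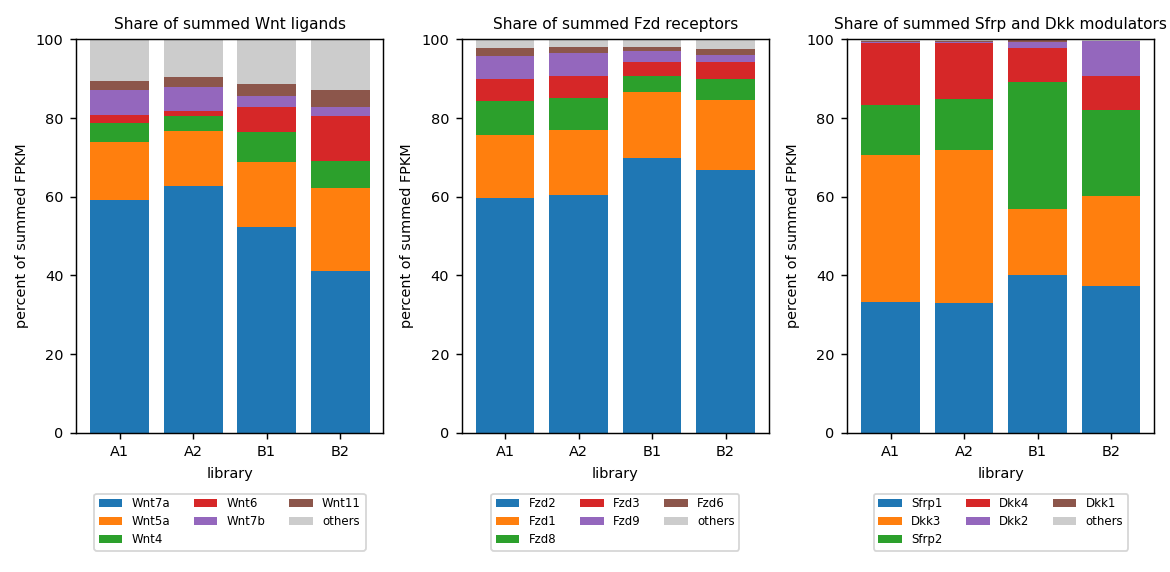
Percent of the summed FPKM of the Wnt ligands (left), Fzd receptors (middle) and Sfrp and Dkk modulators (right) taken by each gene, in the 4 libraries. *Wnt7a* and *Fzd2* hold the largest share of their family in every library, while *Dkk3* is ahead of *Sfrp1* in A1 and A2 and behind it in B1 and B2.

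Several ligand genes are neighbours in the genome. Of the 44 members, 4 pairs lie less than 100000 bp from each other in rn6, all of them Wnt genes. *Wnt3a* and *Wnt9a* lie on chromosome 10 on opposite strands (45598901 to 45686089, 21020 bp between them), with means of 0.00794 and 2.49 FPKM. *Wnt9b* and *Wnt3*, on the same chromosome (91785893 to 91874836, 22771 bp between them), had 0.00793 and 1.01 FPKM. *Wnt6* and *Wnt10a* lie in the same direction on chromosome 9 (82033543 to 82066047, 6408 bp between them) and had 4.69 and 0.572 FPKM. In each of these pairs the mean of 1 gene was above 1 FPKM and that of its neighbour below, although *Wnt3* was below 1 FPKM in both libraries of B. In the remaining pair, *Wnt10b* and *Wnt1* on chromosome 7 (140448465 to 140469046, 10730 bp between them), both were below 0.1 FPKM.

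Of the secretion genes, *Wls* was above every ligand and *Porcn* below *Wnt7a* in all 4 libraries. *Wls*, the carrier that takes Wnt proteins to the cell surface, had 111 and 118 FPKM in A and 133 and 169 FPKM in B, a mean of 133 ± 25.7 FPKM (SD, n = 2), with B above A in both libraries. The level read from the coverage of *Wls* would be 0.71 times this FPKM in each library, so its height beside other genes is less certain than its differences between libraries. *Porcn*, the enzyme that adds the lipid to Wnt proteins, had 31.1 and 29.4 FPKM in A and 26.7 and 25.6 FPKM in B, a mean of 28.2 ± 2.91 FPKM (SD, n = 2). Here both libraries of A were above both of B, by 0.20 on the log2(FPKM + 1) scale between the means.

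Of the 9 Fzd receptors, 8 had a mean of at least 1 FPKM, and *Fzd2* was the main one. Its rn6 position is chr10:90550147-90552057 (plus strand), and it had 77.3 and 81.1 FPKM in A and 112 and 110 FPKM in B, a mean of 95.2 ± 22.6 FPKM (SD, n = 2). *Fzd1*, of the same receptor subgroup, had 20.8 and 22.2 FPKM in A and 27.0 and 29.5 FPKM in B, a mean of 24.9 ± 4.78 FPKM (SD, n = 2). Both receptors were higher in B without overlap, by 0.48 and 0.38 on the log2(FPKM + 1) scale. *Fzd2* accounted for 59.7% and 60.4% of the summed Fzd level in A1 and A2 and for 69.7% and 66.8% in B1 and B2.

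*Fzd8* was the next receptor and went the other way. It had 11.2 and 11.1 FPKM in A and 6.66 and 8.62 FPKM in B, a mean of 9.41 ± 2.51 FPKM (SD, n = 2). Its entry spans 740523 bp of chromosome 17 in the tables and overlaps Gjd4 and Ccny on the other strand, and its coverage is 0.50 times what its FPKM would give, so its level is uncertain. The order from *Fzd2* to *Fzd1* to *Fzd8* held with no overlap of ranges in the 4 libraries, while *Fzd8* and *Fzd3* overlapped in range. *Fzd3*, a receptor needed for axon tracts, had a mean of 6.87 ± 0.396 FPKM and *Fzd9* 5.64 ± 3.07 FPKM (SD, n = 2). *Fzd6*, *Fzd10* and *Fzd4* ranged from 2.38 down to 1.10 FPKM, and *Fzd5* had 0.527 FPKM.

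Of the co-receptors, *Lrp5* was the higher. *Lrp5* had 14.9 and 15.2 FPKM in A and 13.1 FPKM in both libraries of B, a mean of 14.1 ± 1.38 FPKM (SD, n = 2). *Lrp6* had 2.50 and 2.25 FPKM in A and 1.67 and 2.52 FPKM in B, a mean of 2.23 ± 0.199 FPKM (SD, n = 2). *Lrp5* was 6.29 times as high as *Lrp6*, with no overlap of their ranges, and the replicates overlapped for *Lrp6* but not for *Lrp5*. The co-receptors together had 16.3 ± 1.58 FPKM, against 147 ± 21.9 FPKM for the summed Fzd receptors (SD, n = 2).

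The 8 secreted modulators of the Sfrp and Dkk families summed to 95.2 ± 18.2 FPKM (SD, n = 2), above the summed ligands in each of the 4 libraries, and 5 of them had a mean of at least 1 FPKM. *Sfrp1*, which binds Wnt proteins outside the cell, had 26.3 and 28.2 FPKM in A and 40.5 and 42.9 FPKM in B, a mean of 34.5 ± 10.2 FPKM (SD, n = 2). *Dkk3*, a divergent Dickkopf protein, had 29.7 and 33.1 FPKM in A and 16.9 and 26.4 FPKM in B, a mean of 26.5 ± 6.91 FPKM (SD, n = 2). Neither gene overlapped between the replicates, and their directions were opposite, so that *Dkk3* was the leading modulator of A and *Sfrp1* that of B.

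*Dkk4*, an inhibitor that acts on *Lrp5* and *Lrp6*, had 12.5 and 12.3 FPKM in A and 8.56 and 10.1 FPKM in B, a mean of 10.9 ± 2.19 FPKM (SD, n = 2), with A above B. Of the 4 neighbouring pairs in the order from *Sfrp1* to *Dkk2*, none kept its order in all 4 libraries. *Dkk1*, *Sfrp4* and *Sfrp5* had means from 0.216 down to 0.152 FPKM. *Dkk1*, the classical inhibitor of *Lrp5* and *Lrp6*, was listed at 0 in B2. In the libraries where it was detected, its coverage was from 0.50 to 1 times what its FPKM would give. Its mean and its place before *Sfrp4* are therefore uncertain.

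Inside the cell, *Ctnnb1*, the gene of beta-catenin, had the highest level of all 44 members and ranked 353 among all gene names. It had 240 and 233 FPKM in A and 302 and 252 FPKM in B, a mean of 257 ± 28.9 FPKM (SD, n = 2). Its protein also serves in cell adhesion. *Axin2*, the scaffold of the destruction complex that the pathway itself induces, had 28.0 and 21.5 FPKM in A and 37.2 and 31.9 FPKM in B, a mean of 29.6 ± 6.91 FPKM (SD, n = 2). In both genes B was above A in each library, by 0.23 and 0.46 on the log2(FPKM + 1) scale, below the size needed to be called apart.

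The nuclear factors kept a clear order. *Tcf7l1*, mostly known as a repressor, had 33.3 and 31.7 FPKM in A and 45.1 and 50.6 FPKM in B, a mean of 40.2 ± 10.8 FPKM (SD, n = 2). *Tcf7l2* had 19.3 and 20.0 FPKM in A and 20.2 and 16.9 FPKM in B, a mean of 19.1 ± 0.766 FPKM (SD, n = 2), and its replicates overlapped. *Lef1*, mostly known as an activator, had 3.54 and 3.67 FPKM in A and 6.35 and 8.57 FPKM in B, a mean of 5.53 ± 2.72 FPKM (SD, n = 2). The ranges of these 3 genes did not overlap each other in any library. *Tcf7l1* and *Lef1* were higher in B, by 0.54 and 0.88 on the log2(FPKM + 1) scale.

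Between the replicates, 4 of the 33 members that averaged 1 FPKM or more (12.1%) were apart, against 6.20% of the 10481 gene names at this level. All 4 were higher in B, against 4.78% of gene names, and 0 were higher in A, against 1.42%. They were the ligands *Wnt2b* and *Wnt6* and the modulators *Dkk2* and *Sfrp2*. With the threshold at 1, the closest members were *Sfrp2* inside it (1.38) and *Fzd9* outside it (-0.98).

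*Wnt2b*, a ligand known from the cortical hem, had 0.572 and 0.508 FPKM in A and 3.60 and 2.98 FPKM in B. The replicate means of 0.540 and 3.29 FPKM differed 6.09-fold, and by 1.48 on the log2(FPKM + 1) scale. *Wnt6* had 1.42 and 1.08 FPKM in A and 5.91 and 10.4 FPKM in B. Its replicate means were 1.25 and 8.14 FPKM, a 6.52-fold difference and 2.02 on the log2(FPKM + 1) scale. For both ligands the gap between A and B was larger than that between technical libraries.

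*Sfrp2*, a Wnt-binding protein of progenitors and of mesenchyme, had 10.04 and 11.03 FPKM in A and 32.6 and 25.2 FPKM in B. Its replicate means of 10.5 and 28.9 FPKM differed 2.75-fold. *Dkk2*, a ligand of *Lrp5* and *Lrp6*, had 0.214 and 0.305 FPKM in A, 1.60 FPKM in B1 and 10.3 FPKM in B2. The replicate means of 0.259 and 5.94 FPKM differed 22.9-fold, but this value rests on B2, and with B1 alone the difference was 6.17-fold. Without B2 the mean of *Dkk2* fell below 1 FPKM, and 3 members were apart, all higher in B (9.38% of 32), against 3.67% of all gene names under the same setting.

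**Figure D3:**
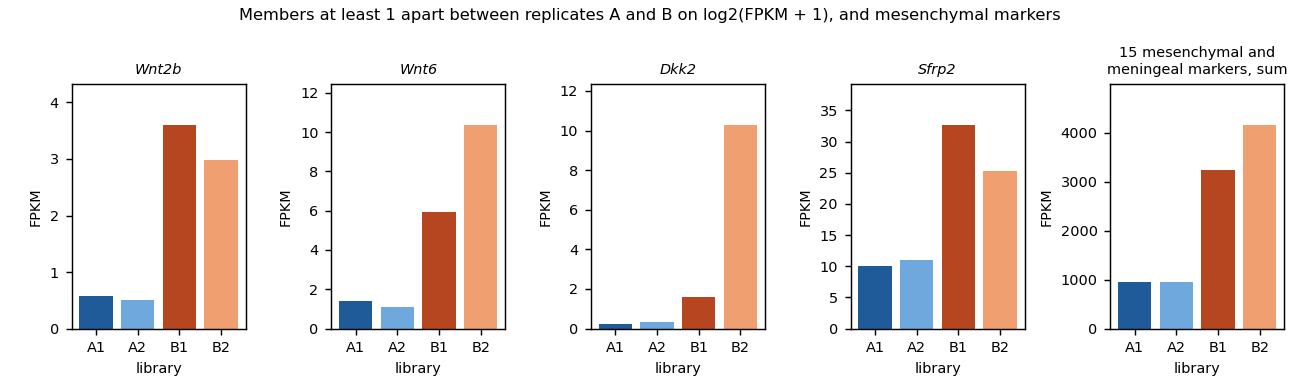
FPKM of *Wnt2b*, *Wnt6*, *Dkk2* and *Sfrp2*, and the summed FPKM of 15 mesenchymal and meningeal marker genes, in the 4 libraries (bars are single libraries, each panel with its own axis from 0). All 5 panels are higher in B1 and B2 than in A1 and A2, and *Dkk2* stands out in B2.

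Like these 4 genes, the 15 mesenchymal and meningeal markers were higher in both libraries of B than in those of A. With 1 contrast between 2 cultures, whether they vary together was not tested. The summed level of the 15 markers was 951 FPKM in A1 and in A2, 3237 FPKM in B1 and 4154 FPKM in B2, and none of the markers was at 0 in every library. The highest was *Col3a1*, a fibrillar collagen, with 207 and 200 FPKM in A and 694 and 841 FPKM in B. The 5 with the largest differences were *Col1a2* (2.34), *Dcn* (2.30), *Foxc1* (2.28), *Col1a1* (2.17) and *Postn* (2.04) on the log2(FPKM + 1) scale. *Col1a1*, a collagen of fibroblasts, had 169 and 157 FPKM in A and 685 and 785 FPKM in B, and *Foxc1*, a transcription factor of the meninges, had 14.2 and 14.1 FPKM in A and 29.4 and 115 FPKM in B. *Foxc1*, *Dkk2* and *Wnt6* were higher in B2 than in B1, whereas *Wnt2b* and *Sfrp2* were lower in B2 than in B1. Some other marker lists also differed between the replicates. Of 3 neuron markers above 1 FPKM, 0 were apart, but 2 were lower in B without overlap, against 32.0% of all gene names. These were *Dcx*, with 10.6 and 12.7 FPKM in A and 7.81 and 7.64 FPKM in B, and *Rbfox3*. The highest, *Tubb3* at 118 ± 9.88 FPKM (SD, n = 2), overlapped. No endothelial or microglial marker averaged 1 FPKM, so none could be called apart. Of 3 oligodendrocyte lineage markers above 1 FPKM, 2 were apart with B higher, against 4.78% of all gene names. *Pdgfra*, also a gene of mesenchyme, had 9.50 and 9.09 FPKM in A and 59.5 and 59.4 FPKM in B, and *Olig1* was apart with B higher, though not without A1 (0.96) or without B1 (0.37). *Olig2* overlapped, with 66.8 and 69.3 FPKM in A and 103 and 49.7 FPKM in B, and *Sox10* had 0.369 and 0.373 FPKM in A and 0.219 and 0.0731 FPKM in B. Of 4 choroid plexus and cortical hem markers above 1 FPKM, *Msx1* was apart with B higher, against 4.78% of all gene names, and *Ttr* and *Otx2* with A higher, against 1.42%. *Otx2* was listed at 0 in B2, and without that library it was not apart (-0.44). The part of any of these cell types in the levels of *Wnt2b*, *Wnt6*, *Dkk2* and *Sfrp2* was not tested.

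Counted over all sizes of difference, more members were higher in B than in A. Both libraries of B were above both of A in 18 of the 33 members (54.5%), against 28.1% of all gene names, and both libraries of A above both of B in 9 (27.3%), against 32.0%. The other 6 overlapped. The median difference of B minus A over the 33 members was 0.35 on the log2(FPKM + 1) scale, against -0.03 for all gene names at this level. Without B2 the median of the members was 0.18. Of the 29 members that were not apart, 14 (48.3%) were higher in B without overlap and 9 (31.0%) higher in A, and their median difference was 0.01. By role, B was above A in 7 of 11 ligands, 3 of 8 receptors, 3 of 5 modulators, both beta-catenin and Axin genes, 2 of 3 nuclear factors, 1 of 2 secretion genes and neither co-receptor. The technical libraries B1 and B2 were at least 1 apart on this scale in 1 member, *Dkk2* (3.03%, against 2.80% of all gene names).

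Among the members that were not apart, the median difference of the 9 higher in A was -0.52 and that of the 14 higher in B 0.51. *Fzd9*, *Wnt7b* and *Wnt3* are named here after their values were seen. *Fzd9* had 7.76 and 7.87 FPKM in A and 4.14 and 2.81 FPKM in B, a difference of -0.98. *Wnt7b* had 4.51 and 4.54 FPKM in A and 2.64 and 1.90 FPKM in B, a difference of -0.76, while *Wnt3* had 1.64 and 1.22 FPKM in A and 0.774 and 0.405 FPKM in B, a difference of -0.61. Of the 8 neural progenitor markers, 4 were lower in B without overlap, against 32.0% of all gene names, and 4 overlapped. *Hes5* and *Fabp7* were apart, against 1.42% of all gene names with A higher. The replicate means of *Vim*, *Nes* and *Slc1a3* were higher in B.

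**Figure D4:**
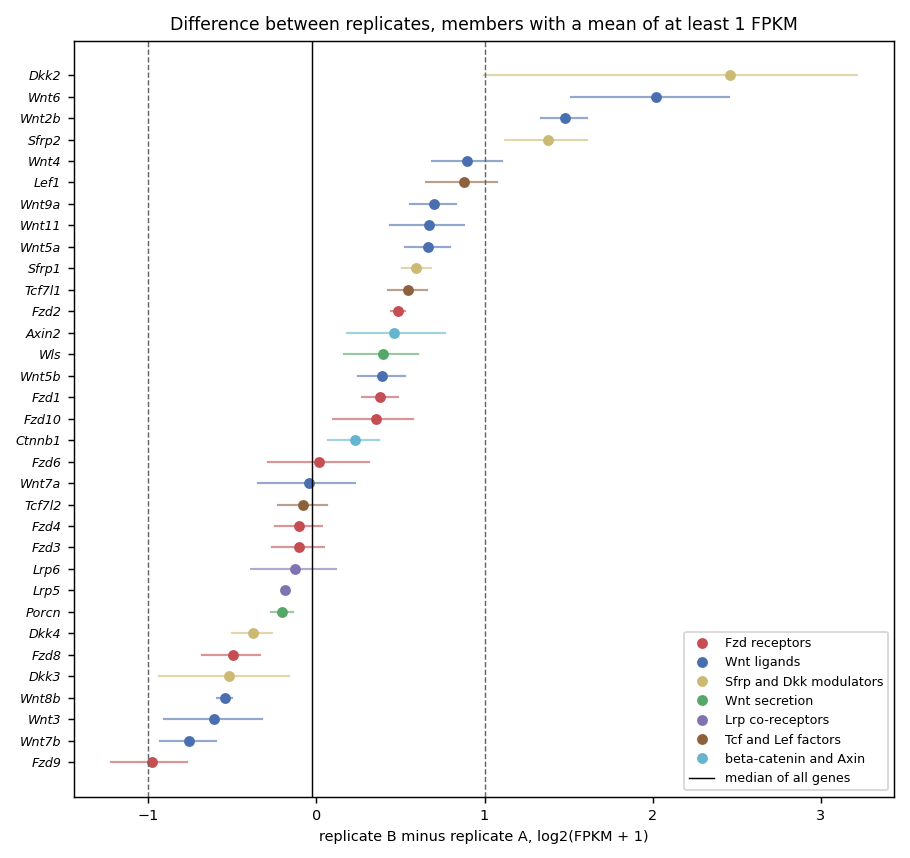
Difference between replicate B and replicate A on the log2(FPKM + 1) scale for the 33 members averaging 1 FPKM or more (points, replicate means; lines, lowest to highest difference between single libraries of B and A). Dashed lines mark a difference of 1 in either direction, the solid line is the median of all genes (-0.03), and *Dkk2*, *Wnt6*, *Wnt2b* and *Sfrp2* lie beyond 1.

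Other genes of the pathway were read from lists of 71 genes, of which 60 are named in the tables and 51 averaged 1 FPKM or more. Of these 51, 8 (15.7%) were apart between the replicates, against 6.20% of all gene names, and the median difference was 0.03, against -0.03. There were 5 higher in B and 3 higher in A, against 4.78% and 1.42% of all gene names. With each library left out in turn, 7 to 11 of these genes were apart, against 5.48% to 8.46% of all gene names. Both the lowest values (without B2) and the highest (without B1) came under the same settings. None of the 14 transducers and destruction complex genes and none of the 8 nuclear partners was apart. Without B2, *Apc* of the destruction complex was apart with A higher, and with all libraries it had 26.6 FPKM in A1 and A2 and 12.0 and 15.9 FPKM in B, a difference of -0.88. The highest in these lists were *Csnk1d*, a casein kinase of the complex, at 72.4 ± 2.31 FPKM, and *Pygo2*, a partner of beta-catenin in the nucleus, at 37.4 ± 0.115 FPKM (SD, n = 2). The libraries of *Pygo2* were farther from each other than this SD, with 39.7 and 35.1 FPKM in A and 39.5 and 35.0 FPKM in B.

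Among genes that the pathway is known to induce, 2 of 6 were apart, both higher in B, against 4.78% of all gene names, and 4 of 6 had no overlap with B above A, against 28.1%. With so few genes these shares are only a description. *Nkd1*, a feedback inhibitor that binds dishevelled, had 18.34 and 16.99 FPKM in A and 36.4 and 46.8 FPKM in B, a difference of 1.19 on the log2(FPKM + 1) scale. *Ccnd1*, the gene of the cell cycle regulator cyclin D1, had 6.64 and 6.84 FPKM in A and 19.8 and 21.3 FPKM in B, a difference of 1.48. *Axin2* and *Lef1*, which also belong to the induced genes, had smaller differences in the same direction. Genes such as *Ccnd1* also respond to other signals.

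In the R-spondin branch, which strengthens Wnt signals at the receptor, 1 of 3 genes was apart, against 6.20% of all gene names. *Rspo1* had 0.780 and 0.759 FPKM in A and 3.77 and 3.66 FPKM in B, and its libraries agreed closely within each replicate. *Lgr4*, the receptor for R-spondins with the highest level, had 18.3 ± 5.31 FPKM (SD, n = 2) and was higher in A.

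Among the other Wnt receptors and planar polarity genes, 4 of 12 were apart, against 6.20% of all gene names. They were 2 higher in B and 2 higher in A, against 4.78% and 1.42%. *Ror2*, the receptor tyrosine kinase that binds *Wnt5a*, had 9.11 and 8.87 FPKM in A and 30.7 and 30.1 FPKM in B, a difference of 1.65 on the log2(FPKM + 1) scale. *Prickle1*, a planar polarity gene, had 6.06 and 5.76 FPKM in A and 9.91 and 19.4 FPKM in B, and without B2 its difference was 0.66, no longer apart. In the other direction, *Daam1*, which links dishevelled to actin, had 53.0 and 56.5 FPKM in A and 24.0 and 24.1 FPKM in B. *Celsr2*, a planar polarity cadherin, had 24.7 and 17.9 FPKM in A and 8.15 and 11.8 FPKM in B, and it was not apart without A1 (-0.79) or without B1 (-0.80). *Wnt5a* and *Ror2* were both higher in B, whereas *Celsr2* and *Daam1* were higher in A. The highest gene of this list was *Ptk7*, a receptor of the planar polarity branch, at 55.5 ± 16.6 FPKM (SD, n = 2).

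Of the 8 other extracellular modulators, *Ndp* was apart, with the higher level in A, against 1.42% of all gene names. *Ndp*, the gene of norrin, a ligand of *Fzd4*, had 9.75 and 11.2 FPKM in A and 8.68 FPKM in B1, and it was listed at 0 in B2, and without that library its difference was -0.25, no longer apart. The highest gene of the list was *Tspan12*, a partner of *Fzd4*, at 59.5 ± 0.875 FPKM (SD, n = 2), although B1 and B2 had 77.8 and 42.5 FPKM. *Fzd4* itself had 1.10 ± 0.106 FPKM (SD, n = 2).

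**Figure D5:**
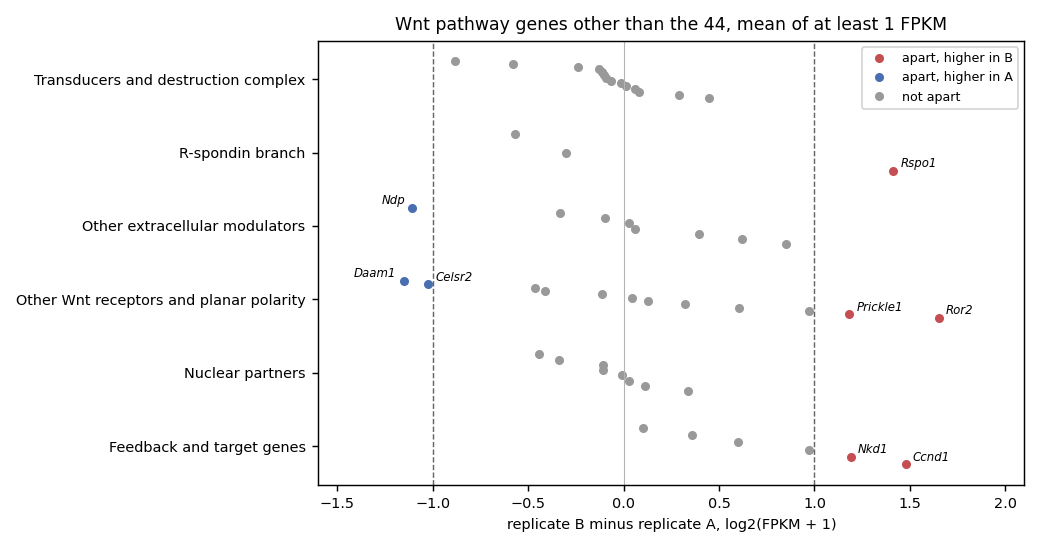
Difference between replicate B and replicate A on the log2(FPKM + 1) scale for the 51 other pathway genes averaging 1 FPKM or more, by list, with dashed lines at a difference of 1 in either direction. The 8 genes that were apart are named, and none of them is in the lists of transducers or nuclear partners.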

How the data were processed

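PolyA RNA of 2 biological replicates of neural progenitors was sequenced as 2 technical libraries each, and grouped by the sample titles. Alignment by the authors was to rn6 with STAR. The submitters' processing notes also name cutadapt, HISAT and StringTie, and versions are not given in the sources used here. FPKM values were computed by the authors, with Rsubread and DESeq2 named in the methods, although the tables look like StringTie output. The TPM columns deposited beside them add up to 1000000 per library. Coverage, as deposited, gives reads per base before scaling to the library.

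Rows sharing a gene name were added, and FPKM was then averaged over technical libraries and then over A and B. The tables hold between 17651 and 17680 rows. Coverage per FPKM was within 1% of the library median for 96.0% to 96.2% of detected genes. Differences were taken with a pseudocount of 1, which understates the change of low genes. The technical libraries were taken to measure technical spread, and n = 2. They were paired by title, and whether each pair came from 1 RNA sample is not stated. B1 and B2 were at least 1 apart on the log2(FPKM + 1) scale in 2.80% of gene names averaging 1 FPKM or more. Among these, *Foxc1* had 29.4 and 115 FPKM and *Otx2* 16.8 and 0 FPKM. Whether this spread is only technical was not tested. The counting of genes apart was tested on simulated libraries.

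The members, gene lists and rules were chosen with earlier results of these data known. Members named with all values were those with a mean of at least 10 FPKM, the 3 highest of each role and those apart between replicates. From the other lists, the highest gene and up to 5 genes apart, by size of difference, were named. Further genes of these lists, such as *Olig2*, *Vim* and *Apc*, were named after their values were seen. The alternatives were TPM, scaling of the libraries, other thresholds and pseudocounts, and each replicate or library left out. The Start-seq samples have no table among the files used. Sequences are from RefSeq (GRCr8), and none of its coordinates were mixed with rn6. Python 3.11.15, pandas 2.3.3, numpy 2.4.6 and matplotlib 3.10.9 were used.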

Additional observations from a re-analysis of the deposited data

Results flagged for a closer look

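The levels of 22 members and the sums and leading shares of the families, 32 values in all, were examined for a library far from the other 3, by the size of its gap to the next value as a part of the whole range. About 1 in 20 values would meet this by chance if the libraries were independent, which technical pairs are not. There was 1 such value. *Dkk2* had 10.3 FPKM in B2, while B1 had 1.60 FPKM and the libraries of A 0.214 and 0.305 FPKM, and the gap was 0.862 of the range. B2 was also the library of lowest depth (28.1% of B1) and of the highest summed level of mesenchymal and meningeal markers, and the part of either in the value of *Dkk2* was not tested.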

How the results depend on the processing

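No paired analysis was possible because there was 1 condition and the technical library numbers do not link A with B. Of 90 alternatives for counts, sums and shares, 76 kept the value within 1.5 times or within the spread between replicates, as did 4 further ones, with log2 values averaged over libraries, which were chosen after seeing the data. Leaving out each library for the other pathway genes and the mesenchymal markers was also chosen then.

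The cause of the other 14 was not tested unless it follows from the setting itself. At a minimum mean of 10 FPKM, 15 members passed and 1 was apart (1 higher in B), *Sfrp2*. At a log2 difference of 0.58, 13 were apart, 10 higher in B and 3 in A. With a pseudocount of 0.1, 8 were apart, 2 of them higher in A (*Fzd9* and *Wnt3*). In TPM the summed ligand level was 137 and 1 member, *Fzd9*, was apart with A higher. Under 0.1 FPKM in all libraries there were 5 members, against 0 at exactly 0. With libraries or replicates left out, the number at 0 in every library ranged from 0 to 3, the number higher in A from 0 to 1 (*Fzd9*, without B1) and the median of B minus A from 0.18 (without B2) to 0.40. The 4 members apart remained apart under each setting that compares A with B, except the minimum mean of 10 FPKM and, for *Dkk2*, the removal of B2. For single members, 36 of 330 alternatives moved the value by more than the spread, 22 of them in TPM, and none of the 4 members apart changed direction. B2 had 28.1% of the depth of B1. The levels of the 11 members below 1 FPKM are uncertain, since their coverage was at most 16.8 reads per base in any library.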
